A study of Homo sapiens with 6 samples.

Results

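Multidrug ABC transporters are membrane pumps that move drugs, bile salts, conjugated toxins and signalling molecules out of cells at the cost of ATP. The genes were chosen by symbol as ABCC1, ABCC2, ABCC3, ABCC4, ABCC5, ABCC10, ABCB1 and ABCG2, which are 8 of the 58884 gene IDs in each table. Earlier results of the same knockdown contrast were known when they were chosen, so their differences between the groups are given as a description, without p-values. All 8 were high enough to test. RNA came from HCT116, an established human colorectal cancer cell line, harvested 48 h after cells received either siRNAs against Matrin3 (siMatrin3, 3 libraries) or a control siRNA (siCTRL, 3 libraries). Matrin3 is an RNA-binding protein of the nuclear matrix with a part in splicing. Both groups were the same line, carried no other treatment in the labels, and differed in the siRNA. The study's methods describe poly(A) capture with a stranded mRNA kit and, separately, ribosomal RNA depletion 48 h after transfection. Each was done in biological triplicates. The 48 h harvest and the TopHat alignment named in the labels go with the depleted set, whereas the labels name a stranded mRNA kit.

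Each pump carries nucleotide-binding domains that hydrolyse ATP and membrane-spanning domains that form the path of the substrate. The ABCC pumps, also called multidrug resistance-associated proteins (MRPs), export organic anions, often as conjugates with glutathione, glucuronate or sulphate. ABCB1 (P-glycoprotein) and ABCG2 (breast cancer resistance protein) export mainly hydrophobic drugs, and in the normal gut they sit, like ABCC2, on the apical face of the epithelium, whereas ABCC1 and ABCC3 sit on the basolateral face.

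Estimated counts summed to 4556658 to 8400412 per library. The mitochondrial share of these counts was 9.03% to 10.2% for siCTRL, against 9.80% to 11.6% for siMatrin3. MATR3, the targeted gene, fell from 345 ± 16.7 to 70.6 ± 2.38 CPM (reads scaled to an equal library size, mean ± SD, n = 3 each), which left 20.4% (edgeR log2 fold change -2.29 ± 0.06 SE, adjusted p = 7.58e-11). Of 12 markers of colon epithelium, 6 were high enough to test, and KRT19 and EPCAM rose (edgeR adjusted p = 0.0106 and 0.0183). KRT8, KRT18, CDH1 and CDX2 were not called (edgeR adjusted p = 0.0592, 0.282, 0.380 and 0.906). DESeq2 called 3 of the list higher and limma 0. With edgeR 5.68% of all genes tested were called higher. CDX1 and CEACAM6 were listed at 0 in all libraries. The TPM of the 12 markers summed to 1077 to 1148 in siCTRL and 1159 to 1170 in siMatrin3, and their part in the transporter values was not tested. Of 10 fibroblast markers 3 were tested and none passed edgeR's threshold (0 also at an unadjusted p under 0.05, with DESeq2 and with limma). COL1A2, COL3A1, DCN, LUM, PDGFRA and FAP were at 0, and the summed TPM was 11.1 to 12.9 in siCTRL and 10.6 to 11.4 in siMatrin3. None of 10 blood or 8 hepatocyte markers reached the level needed for a test. Their summed TPM stayed at or under 2.85 and 1.06, with CD3E, HBB, APOB, TTR and FGB at 0.

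The transporters are related but separate genes. By coding sequence, ABCC1 and ABCC3 were the closest pair, with 57.5% of the residues of the shorter protein identical after alignment, followed by ABCC1 and ABCC2 with 49.25% and ABCC2 and ABCC3 with 47.94%. ABCB1 shared 26.41% with ABCC1. The encoded proteins ranged from 655 residues in ABCG2, a transporter built from a single set of domains that works as a dimer, to 1545 in ABCC2. The lines below show the stretch of 45 coding bases around the ABC signature, the motif by which a nucleotide-binding domain contacts ATP. They are printed because they show how one conserved motif is spelled in each mRNA. Capitals mark the codons of the signature, and the flanks are in lower case, 5′ to 3′ on the coding strand. The bases came from GENCODE release 44 transcripts.
ABCC1: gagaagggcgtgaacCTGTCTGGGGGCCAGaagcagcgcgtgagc
ABCC2: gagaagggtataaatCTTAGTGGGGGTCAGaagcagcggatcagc
ABCC3: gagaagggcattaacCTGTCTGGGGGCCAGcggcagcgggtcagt
ABCC4: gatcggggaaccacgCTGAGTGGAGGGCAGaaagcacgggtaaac
ABCC5: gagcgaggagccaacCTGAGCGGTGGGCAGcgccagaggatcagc
ABCC10: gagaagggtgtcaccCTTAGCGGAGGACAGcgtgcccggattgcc
ABCB1, first copy: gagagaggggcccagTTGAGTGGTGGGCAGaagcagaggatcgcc
ABCB1, second copy: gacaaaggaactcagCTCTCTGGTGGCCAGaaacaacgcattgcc
The capitals lie within a single exon in every case, on hg38 at chr16:16086833-16086847 (plus strand) for ABCC1, chr10:99818799-99818813 (plus) for ABCC2, chr17:50672980-50672994 (plus) for ABCC3, chr13:95178020-95178034 (minus) for ABCC4, chr3:183963553-183963567 (minus) for ABCC5, chr6:43441910-43441924 (plus) for ABCC10, and chr7:87549468-87549482 and chr7:87505993-87506007 (both minus) for ABCB1. ABCC1 and ABCC3 spell the signature with the same codons, and ABCC2 spells it differently. ABCB1 had the exact motif 2 times, each ABCC protein 1 time, and ABCG2 held 0 exact matches, so no stretch of it is shown.

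Levels between the genes were compared in TPM, which is scaled to transcript length. ABCC2 was the most abundant pump mRNA, at 57.7 ± 2.62 TPM in siCTRL (mean ± SD, n = 3). ABCC1 followed at 38.6 ± 0.973, ABCC4 at 19.1 ± 2.89, ABCC10 at 11.0 ± 2.27, ABCC5 at 10.2 ± 2.08 and ABCC3 at 6.93 ± 0.799. ABCG2 and ABCB1 were close to 1 TPM, at 1.32 ± 0.625 and 1.19 ± 0.178. The pumps best known for multidrug resistance, ABCB1 and ABCG2, were thus the lowest of the set.

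Neighbours in this order were compared within each library, separately in the control and knockdown groups, on the scale log2(TPM + 0.1). The order was set from the siCTRL libraries themselves and the knockdown values from the contrast behind the choice of genes, so the differences are given without a test. ABCC2 exceeded ABCC1 by 0.58 ± 0.04 (SD, n = 3) in siCTRL and by 1.43 ± 0.18 in siMatrin3. ABCC1 exceeded ABCC4 by 1.02 ± 0.19 and 1.08 ± 0.07, and ABCC4 exceeded ABCC10 by 0.80 ± 0.09 and 1.24 ± 0.30. ABCC5 exceeded ABCC3 by 0.54 ± 0.43 and 0.60 ± 0.10, and ABCC3 exceeded ABCG2 by 2.40 ± 0.61 and 2.43 ± 0.39. Each of these 5 differences had the same sign in 6 of 6 libraries. ABCC10 and ABCC5 changed places, with ABCC10 above ABCC5 by 0.11 ± 0.02 in 3 of 3 siCTRL libraries and below it, at -0.32 ± 0.15, in 3 of 3 siMatrin3 libraries. ABCG2 was above ABCB1 in 2 of 3 libraries of each group, by 0.05 ± 0.76 and 0.07 ± 0.45, which is less than the spread. The exchange of ABCC10 and ABCC5 was seen on the length-scaled measure and not in CPM. In mean CPM ABCC5 stayed above ABCC10, at 44.5 and 24.3 in siCTRL and 41.2 and 28.2 in siMatrin3.

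**Figure D1:**
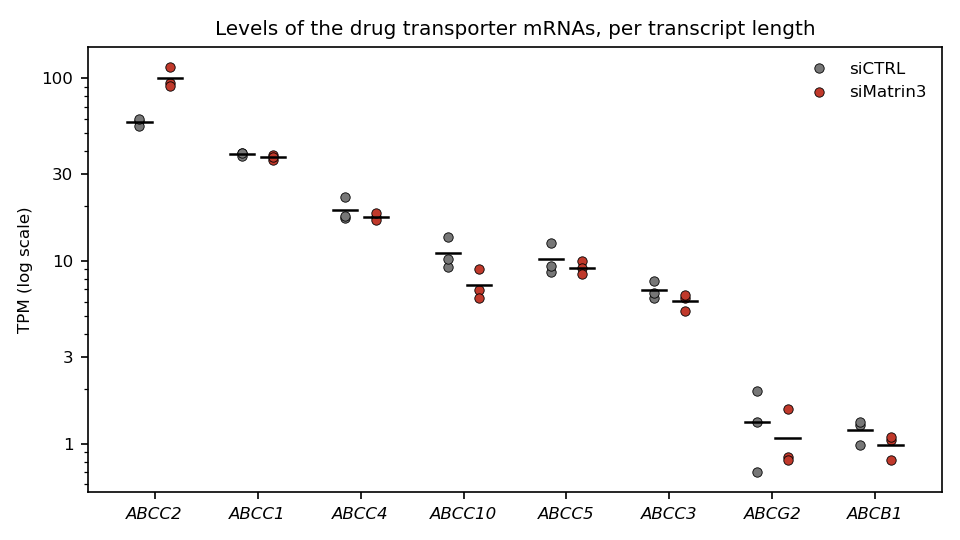
TPM of the 8 transporter mRNAs on a log axis, 1 point per library (gray siCTRL, red siMatrin3, n = 3 each), with bars at the group means. ABCC2 lies above the other pumps in every library, and ABCG2 and ABCB1 lie near 1 TPM.

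The knockdown comparison asked how each pump mRNA differed after loss of Matrin3. ABCC2 was the 1 transporter past edgeR's threshold (Benjamini-Hochberg adjusted p under 0.05 over 14334 genes tested), and it was higher. The background was 5.68% of genes called higher, 5.18% called lower and 10.9% in either direction. None was called lower by edgeR, DESeq2 or limma. At an unadjusted p under 0.05 in edgeR, 2 were higher (ABCC2 and ABCC10) and 1 was lower (ABCC3), beside 12.8% and 12.3% of all genes. The median log2 fold change of the 8 was -0.04, against -0.00065 over all genes tested. In 3 of the 8 the CPM of the groups did not overlap, beside 29.8% of all genes. Because the members were selected on this contrast, nothing is read from these counts. In bulk RNA, fewer cells of a type and less RNA per cell cannot be told apart.

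**Figure D2:**
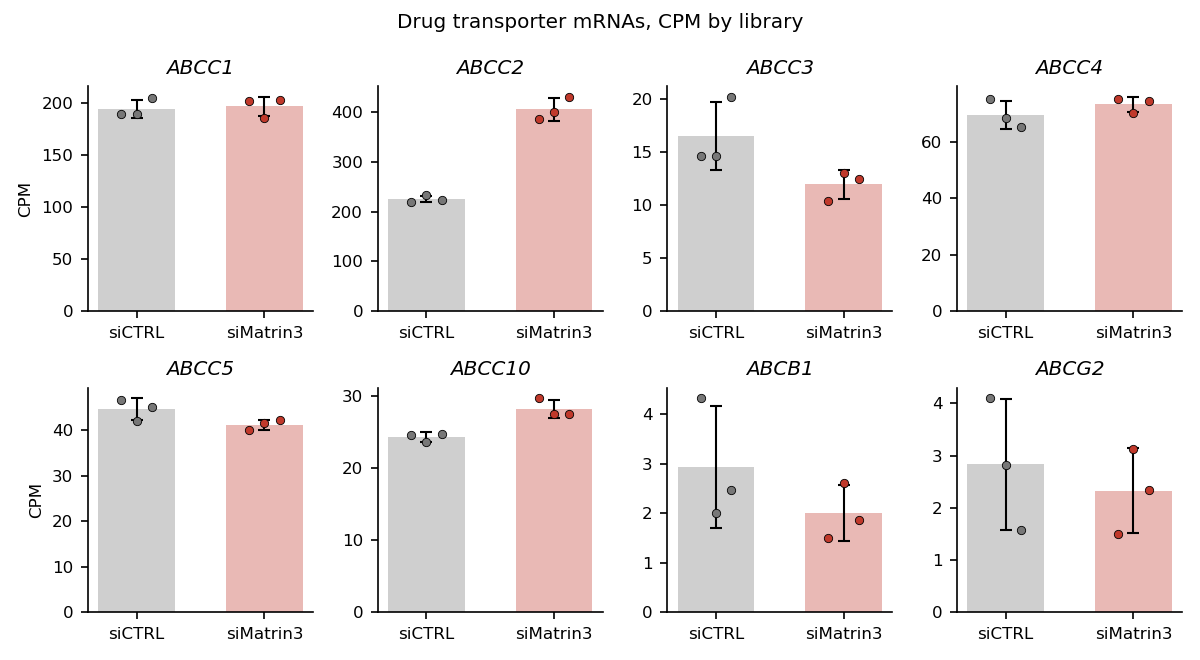
CPM of each transporter mRNA by library (points), with the group mean (bar) and SD (error bar), n = 3 per group and a separate axis from 0 for each gene. In ABCC2 all siMatrin3 libraries lie well above all siCTRL libraries, and in the other panels the groups lie close together or overlap.

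ABCC2 (MRP2, ENSG00000023839, chr10:99782640-99852594 on hg38, plus strand, 32 exons) exports bilirubin glucuronides, glutathione conjugates and drugs such as cisplatin and methotrexate across the apical membrane. Its CPM was 220.1, 232.6 and 222.8 in the siCTRL libraries and 386.4, 400.6 and 431.5 in the siMatrin3 libraries. The lowest knockdown library lay far above the highest control library. The mean rose from 225 ± 6.59 to 406 ± 23.1 CPM (SD, n = 3), a 1.80-fold difference with an edgeR log2 fold change of 0.85 ± 0.06 SE (95% interval 0.73 to 0.97). In descending order of log2 fold change it was 126 of 14334 genes. Its estimated counts, 1020 to 1979 in siCTRL and 2301 to 2817 in siMatrin3, make it the most deeply sampled transporter.

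On the length-scaled measure ABCC2 also separated the groups. Its TPM was 58.1, 54.95 and 60.15 in siCTRL, against 94.39, 90.95 and 114.91 in siMatrin3. The mean was 57.7 ± 2.62 against 100.1 ± 13.0 TPM. Its effective length was 3868 to 4269 bases in siCTRL and 3502 to 4164 in siMatrin3, and these ranges overlapped. Effective length is the number of positions where a fragment can start, averaged over isoforms by their estimated abundance. ABCC2 took 39.12% of the counts of the 8 genes in siCTRL and 53.26% in siMatrin3. The share of ABCC1 moved from 33.42% to 25.85% at a nearly equal CPM.

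The genes whose log2 CPM followed ABCC2 most closely over the 6 libraries were TTC39C, FCF1, a ribosome biogenesis factor, and RABEP2, an endosomal RAB effector. Their Pearson correlations with ABCC2 were 0.9989, 0.9988 and 0.9987 among 11455 genes compared. Since the 6 libraries form 2 groups, this measure mostly follows the group difference, and 750 genes had a correlation over 0.9. TTC39C differed by 0.31 on the log2 scale, FCF1 by 0.41 and RABEP2 by 0.51, all less than ABCC2.

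ABCC1 (MRP1, ENSG00000103222, chr16:15949138-16143257, plus strand) exports glutathione conjugates and anthracyclines. Its CPM was 188.6, 189.4 and 203.9 in siCTRL, against 201.1, 185.4 and 202.1 in siMatrin3, so the groups overlapped. The means were 194 ± 8.64 and 196 ± 9.36 CPM, with a log2 fold change of 0.02 ± 0.06 SE. The 95% interval was -0.11 to 0.14. In TPM its means were 38.6 ± 0.973 and 36.9 ± 1.30, a log2 difference of -0.06 on log2(TPM + 0.1), where the median of all genes was -0.10.

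ABCC3 (MRP3, ENSG00000108846, chr17:50634777-50692253, plus strand) exports glucuronides and bile salts across the basolateral membrane. Its CPM was 14.7, 14.7 and 20.3 in siCTRL, against 10.4, 13.1 and 12.5 in siMatrin3, and all siMatrin3 libraries lay below all siCTRL libraries. The spread within siCTRL was large, with replicate 3 standing above the other two. The means were 16.5 ± 3.22 and 11.99 ± 1.38 CPM, with a log2 fold change of -0.47 ± 0.16 SE (95% interval -0.82 to -0.11), which did not pass the threshold over all genes. With the replicate number as a block the log2 fold change was -0.45 and ABCC3 was called lower, beside a background of 7.37% of genes called lower in that fit. In TPM its groups overlapped, at 6.25, 7.81 and 6.73 against 6.26, 6.50 and 5.33, and without siCTRL replicate 3 its log2 fold change was -0.30. Its effective length averaged 2485 ± 627 bases in siCTRL and 1899 ± 284 in siMatrin3, a log2 ratio of -0.39, and 4.18% of genes had one at least as large in either direction. With effective length as an offset its log2 fold change was -0.11. The 3′ UTR of ABCC3 held the 7 bases GAAGACT 1 time, as did that of ABCC4, whose log2 fold change was 0.08. GAAGACT or AAGACTA occurred in 18.41% of 12131 3′ UTRs searched and ATTACAA or TTACAAA in 25.7%. The other transporters held none of these 4 words. The words had been picked earlier from genes that changed in these data, so nothing is read from their presence or absence.

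ABCC4 (MRP4, ENSG00000125257, chr13:95019835-95301475, minus strand) exports cyclic nucleotides, prostaglandins and nucleotide analogues. Its CPM was 75.1, 68.4 and 65.2 in siCTRL, against 75.3, 70.3 and 74.4 in siMatrin3. The groups overlapped, at means of 69.6 ± 5.07 and 73.3 ± 2.64 CPM and a log2 fold change of 0.08 ± 0.07 SE (95% interval -0.07 to 0.24). In TPM its means were 19.1 ± 2.89 and 17.4 ± 0.837, a log2 difference of -0.12 on log2(TPM + 0.1), close to the median of -0.10 over all genes on that scale.

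ABCC5 (MRP5, ENSG00000114770, chr3:183919934-184017939, minus strand) also exports cyclic nucleotides and nucleotide analogues. Its CPM was 46.6, 41.8 and 45.1 in siCTRL, against 39.9, 41.4 and 42.1 in siMatrin3, and the groups overlapped through siCTRL replicate 2. The means were 44.5 ± 2.43 and 41.2 ± 1.12 CPM, with a log2 fold change of -0.11 ± 0.08 SE (95% interval -0.28 to 0.06). ABCC4 and ABCC5 each overlap an antisense long non-coding RNA. Whether reads were counted by strand is not given in the sources used here, so reads of such partners cannot be told apart with certainty.

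ABCC10 (MRP7, ENSG00000124574, chr6:43427366-43450427, plus strand, 22 exons) exports taxanes and other hydrophobic drugs. Its CPM and its TPM separated the groups in opposite directions. Its CPM was 24.6, 23.5 and 24.7 in siCTRL, against 29.6, 27.5 and 27.4 in siMatrin3, without overlap, at means of 24.3 ± 0.647 and 28.2 ± 1.24. The log2 fold change was 0.22 ± 0.09 SE (95% interval 0.02 to 0.42), which did not pass the threshold over all genes. Its TPM was 13.56, 9.23 and 10.22 in siCTRL, against 9.02, 6.97 and 6.28 in siMatrin3. Every siMatrin3 library was thus higher in CPM and lower in TPM than every siCTRL library. The TPM ranges nearly met, at 9.02 in siMatrin3 replicate 1 and 9.23 in siCTRL replicate 2. On log2(TPM + 0.1) ABCC10 differed by -0.56, where the median of all genes was -0.10. Whether its TPM groups stay apart once that shift is removed was not tested.

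The effective length estimated for ABCC10 moved between the groups. Its effective length was 1869, 2568 and 2510 bases in siCTRL, against 3182, 3730 and 4085 bases in siMatrin3, with means of 2316 ± 388 and 3666 ± 455 bases. The groups did not overlap, a log2 ratio of 0.66. ABCC10 was the only one of the 8 transporters with this property, beside 9.44% of all genes tested, and 136 genes (0.949%) had a log2 ratio at least as large in either direction. With effective length as an offset in the count model the log2 fold change of ABCC10 was -0.44, also not past the threshold. In TPM, ABCC2 was above and ABCC10 below in siMatrin3 without overlap, beside 23.9% of all genes without overlap in either direction. ABCC10 overlaps DLK2 on the opposite strand, and its effective length is an estimate from 114 to 216 counts per library. Whether any of its 10 annotated isoforms changed was not tested.

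**Figure D3:**
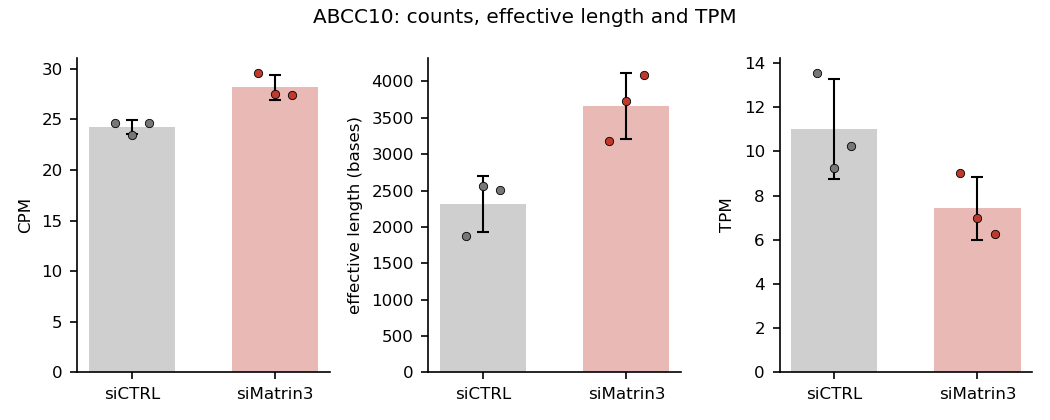
ABCC10 in CPM, effective length in bases and TPM by library (points), with group means (bars) and SD (error bars), n = 3 per group. The siMatrin3 libraries lie above siCTRL in CPM and effective length and below it in TPM.

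ABCB1 (ENSG00000085563, chr7:87503017-87713323, minus strand) held 20, 17 and 14 estimated counts in siCTRL, against 11, 15 and 12 in siMatrin3. These are 4.32, 1.998 and 2.47 CPM against 1.51, 2.61 and 1.87, and the groups overlapped. The first siCTRL library, at 20 counts, had an exact 95% Poisson interval of 12.2 to 30.9 counts, which covers counting error only. The log2 fold change was -0.51 ± 0.39 SE (95% interval -1.35 to 0.33), so this depth could not separate a fall from no difference or a modest rise. Part of ABCB1 overlaps RUNDC3B on the opposite strand.

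ABCG2 (ENSG00000118777, chr4:88090150-88231628, minus strand) was similarly sparse, with 19, 24 and 9 counts in siCTRL, against 11, 18 and 15 in siMatrin3. In CPM these were 4.10, 2.82 and 1.59 against 1.51, 3.13 and 2.34, with overlap. Its log2 fold change was -0.28 ± 0.40 SE (95% interval -1.14 to 0.58), and without siCTRL replicate 1 it was 0.02. No difference in ABCG2 was detectable at this depth.

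**Figure D4:**
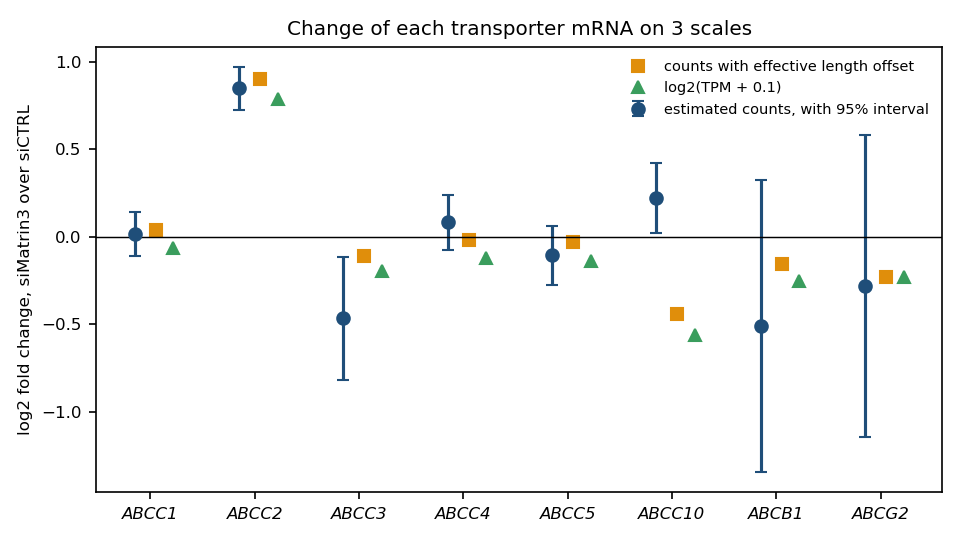
Log2 fold change of each transporter (siMatrin3 over siCTRL) from estimated counts with its 95% interval (circles), from counts with effective length as an offset (squares) and from log2(TPM + 0.1) (triangles). ABCC2 lies between 0.79 and 0.90 on the 3 scales, and ABCC10 lies above 0 in counts and below 0 on the other two.

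The rest of the ABC superfamily gives the setting of these pumps. Of 6 other ABCC genes only ABCC6, a pump of liver and kidney, was high enough to test, at 2.90 ± 1.35 and 2.54 ± 0.557 CPM (edgeR log2 fold change -0.14 ± 0.40 SE, adjusted p = 0.878). Of the 6, 0 passed the threshold or an unadjusted p under 0.05 with edgeR, and 0 with DESeq2 and limma. ABCC6 has near-identical pseudogene copies, so its counts are uncertain. CFTR, the chloride channel of the same subfamily, held 4 counts over all libraries, and ABCC8 and ABCC9, the sulphonylurea receptors, held 2 each.

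Of 34 ABC genes outside the ABCC subfamily, 20 were tested. The median log2 fold change was -0.02, and 2 genes rose and 1 fell, beside 5.68% and 5.18% of all genes. ABCA5, a lysosomal lipid transporter, was 18.6, 13.99 and 14.8 CPM in the control libraries, and the knockdown libraries held 9.88, 6.79 and 7.49. Its edgeR log2 fold change was -0.94 ± 0.18 SE (adjusted p = 0.00541), and its span overlaps ABCA10 on the same strand. ABCE1, a ribosome recycling factor and not a transporter, rose from 234 ± 7.90 to 272 ± 6.50 CPM (edgeR log2 fold change 0.22 ± 0.05 SE, adjusted p = 0.0175). ABCF3, another soluble ABC protein, rose from 48.4 ± 0.264 to 57.2 ± 1.75 CPM (edgeR log2 fold change 0.24 ± 0.07 SE, adjusted p = 0.0431). ABCD3, a peroxisomal fatty acid transporter, was at -0.17 ± 0.06 SE (edgeR adjusted p = 0.110). Both genes that rose encode soluble proteins without membrane domains, and the 3 differences were tested gene by gene, not against ABCC2. The ABCF3 call was lost without any 1 of the 6 libraries, the ABCE1 call without siCTRL replicate 3 or siMatrin3 replicate 2 or 3, and the ABCA5 call held without each. No gene of this list was called by limma on TPM, and 1 rose and 1 fell with DESeq2.

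**Figure D5:**
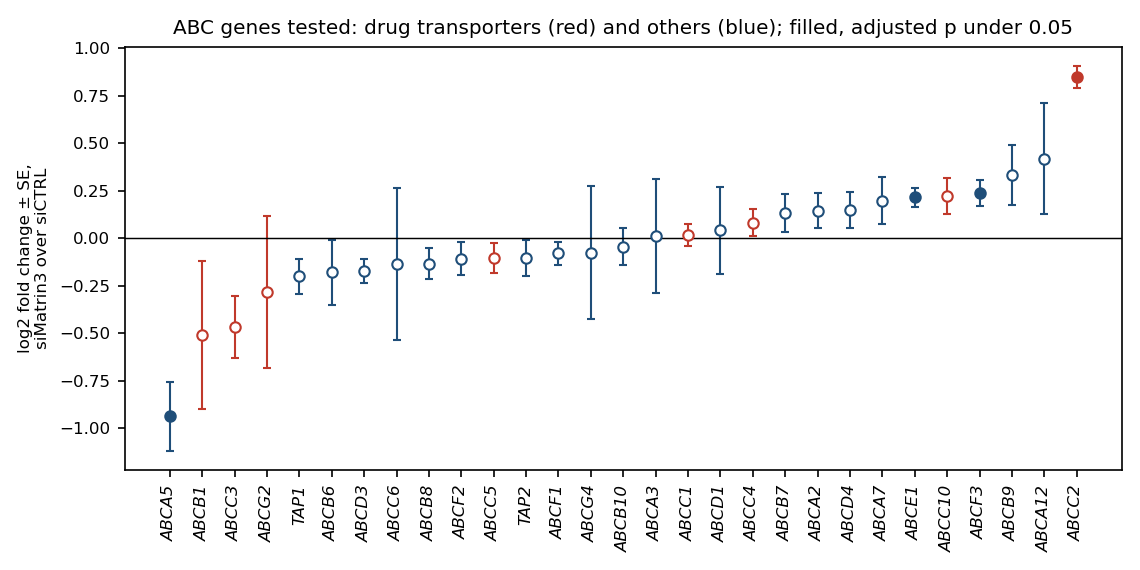
Log2 fold change (siMatrin3 over siCTRL, edgeR) with SE for the ABC genes tested, 8 drug transporters in red and 21 others in blue, in ascending order. Filled points passed the threshold, namely ABCA5 below 0 and ABCE1, ABCF3 and ABCC2 above 0.

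Genes that act before the pumps in drug handling were followed from lists, which were chosen with earlier results known. Of all genes tested, edgeR called 5.68% higher and 5.18% lower. Among 38 uptake transporters 15 were tested, 0 rose and 1 fell (unadjusted p under 0.05 in 1 higher and 2 lower with edgeR, 0 called by DESeq2 or limma). SLC31A1, the copper transporter linked to cisplatin entry, fell from 48.3 ± 2.73 to 39.8 ± 2.27 CPM (edgeR adjusted p = 0.0473), a call that was lost without any 1 of the 6 libraries. Among 34 conjugating enzymes matched 16 were tested, 3 fell and 0 rose, with 0 higher also at an unadjusted p under 0.05 and with DESeq2 and limma. The lower calls numbered 1 with DESeq2, 1 with limma and with either other count filter, and 0 with the effective length offset. The 3 were the glutathione transferases GSTO1 at -0.33 ± 0.07 SE, MGST3 at -0.34 ± 0.10 and MGST1 at -0.24 ± 0.07 (edgeR adjusted p = 0.0110, 0.0473 and 0.0485). Other transferases of this family were not called, among them GSTP1 at -0.06 ± 0.08 SE and GSTK1 at 0.08 ± 0.09, both named after their values were known. MGST3 lost its call without any 1 library but siCTRL replicate 1, MGST1 without any 1 of the 6 and GSTO1 without siMatrin3 replicate 1. Among 37 genes of oxidative drug metabolism 20 were tested and 0 passed in either direction with edgeR, DESeq2 or limma (0 higher and 1 lower at an unadjusted p under 0.05). CYB5A, an electron donor to cytochrome P450 enzymes, was at -0.48 ± 0.19 SE, and with the replicate block it was called lower at -0.44 (edgeR adjusted p = 0.0441).

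The glutathione and NRF2 list holds genes that supply glutathione and answer to oxidative stress. Among 34 genes 29 were tested, and 4 were higher and 3 lower past the threshold, around a median log2 fold change of 0.01. The shares over all genes were 5.68% higher and 5.18% lower. SLC7A11, the cystine importer that feeds glutathione synthesis, rose from 44.6 ± 3.59 to 58.3 ± 2.40 CPM (edgeR adjusted p = 0.00925), and HMOX1, FTH1 and NQO1, singled out from their values to complete the count, rose by 0.58, 0.21 and 0.22 on the log2 scale. In edgeR 22 genes of the list were tested and not called. Among them GCLC was at 0.07, GCLM at -0.01, TXNRD1 at 0.05 and SRXN1 at 0.00095. NFE2L2, which encodes NRF2, was at 0.05 and KEAP1 at 0.10, also not called. These 6 were named after their values were known. MAFG, a partner of NRF2 on DNA whose span overlaps SIRT7, fell by 0.47 and AKR1B1, an aldose reductase, by 0.62 (edgeR adjusted p = 0.000965 and 0.00358). Leaving out 1 library left 0 to 4 of the 4 higher calls. SLC7A11 lost its call without siCTRL replicate 3, FTH1 and NQO1 lost theirs without any 1 library but siMatrin3 replicate 2, and HMOX1 without siCTRL replicate 2 or 3 or siMatrin3 replicate 1 or 3. With the replicate block 6 genes of this list rose, and with limma on TPM 0 did.

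Among 31 transcription regulators linked to drug transporters 26 were tested, and 4 rose, beside 5.68% of all genes called higher. This list too was chosen with earlier results known. The higher calls numbered 4 with DESeq2, and 0 with limma on TPM or with the effective length offset. With edgeR, DESeq2 and limma 0 fell, while 4 were lower at an unadjusted p under 0.05 in edgeR and 2 fell with the replicate block. NR1H2, a sterol-sensing nuclear receptor, rose by 0.45 ± 0.12 SE, PPARG by 0.25 ± 0.06 and HIF1A by 0.23 ± 0.05 (edgeR adjusted p = 0.0259, 0.0229 and 0.0119). Each of these 3 calls was lost without at least 2 of the single libraries, siCTRL replicate 1 for NR1H2 and PPARG and siCTRL replicate 3 for NR1H2 and HIF1A among them. Of the receptors best known for inducing ABCC2 in liver, named for that role and outside the rule, NR1I2 (PXR) and NR1H4 (FXR) were listed at 0 counts in all libraries and NR1I3 (CAR) at 38.3 counts summed over the 6.

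A list of scaffolds, linkers, kinases, vesicle traffic proteins and proteins such as CAV1, drawn up around the apical membrane, was examined last. A part of these proteins in holding ABCC2 there was not tested. All 17 genes matched were tested, and 4 rose and 1 fell, beside 5.68% and 5.18% of all genes. With the block 5 rose and 2 fell, beside 7.37% of all genes called lower in that fit. The list was chosen with earlier results known, so nothing is read from these counts. With limma on TPM 0 rose, and the 1 lower gene was PRKACA, a kinase subunit named from that result, not MYO5B. NHERF1, a PDZ scaffold of apical membranes that overlaps an antisense RNA, was 72.7, 70.4 and 66.0 CPM in the control libraries, below the 102.9, 92.1 and 97.0 of the knockdown libraries (edgeR log2 fold change 0.48 ± 0.07 SE, adjusted p = 0.000876). NHERF2, its paralogue, rose by 0.44 ± 0.11 SE, CAV1, the main protein of caveolae, by 0.35 ± 0.09 and RAB11B, a recycling GTPase singled out from its values, by 0.32 ± 0.08 (edgeR adjusted p = 0.0219, 0.0194 and 0.0260). MYO5B, the motor that carries recycling vesicles to the apical face, fell from 59.2 ± 4.36 to 45.5 ± 1.77 CPM (edgeR adjusted p = 0.00831). Leaving out siCTRL replicate 3 ended the calls of NHERF2, CAV1 and MYO5B, as did siCTRL replicate 1 for NHERF2, siCTRL replicate 2 for CAV1, siMatrin3 replicate 1 for NHERF2 and CAV1, and siMatrin3 replicate 3 for NHERF2. RAB11B lost its call without any 1 library but siCTRL replicate 2 or siMatrin3 replicate 1. RDX, the linker that anchors ABCC2 in bile canaliculi and is named for that role, was at 0.16 ± 0.06 SE (edgeR adjusted p = 0.110).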

How the data were processed

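Per the labels, the authors processed reads with cutadapt, TopHat and RSEM on hg19. The authors' RSEM tables give expected counts, estimated numbers of reads without normalization between libraries, TPM scaled within each library, and an effective length in bases (deposited by the authors as another column). Symbols, exons and hg38 positions were taken by gene ID from GENCODE release 44 (58472 of 58884 IDs, 99.3%). Sources used here do not give the annotation release or strand counting of the authors.

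Expected counts were rounded. Genes passing filterByExpr (minimum count 10, minimum total 15) were scaled by TMM and tested with edgeR 4.0.16's quasi-likelihood test in R 4.3.3, two-sided, with Benjamini-Hochberg adjustment at 0.05. SE was obtained as log2 fold change over the root of F. Steps were tested on simulated data. The p-values measure the spread between cultures of 1 cell line. Library totals were 4556658 to 8400412, and the biological coefficient of variation was 6.44%. Protein identities used a global alignment of translated GENCODE sequences (Biopython 1.88).

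The members and lists were chosen with earlier results of these data known. Genes named were the 8 transporters, MATR3, the 4 genes of lowest p per list, and the 3 most like the most abundant transporter (Pearson, mean of at least 5 CPM). A few others are marked in the text, and some genes the rule takes are not reported here. GSTT1 and PDZD3 had no matching row.

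Same-numbered libraries deviated together (correlations 0.107, 0.104 and 0.157, against -0.084 to -0.024 for different numbers). The replicate numbers were therefore treated as a possible pairing, seen in the data alone. The main fit had no replicate block, so its calls, SE, intervals and background shares are unpaired. With the block 1203 genes were called higher and 1056 lower, against 814 and 743 in the main fit. Alternatives were the replicate block, other scalings (RLE, upper quartile) and count filters, leaving out each library or the mitochondrial and small RNA genes, effective length as an offset, DESeq2 1.42.0, limma-trend (limma 3.58.1) on log2(TPM + 1) and log2(TPM + 0.1), and an adjusted p of 0.01. The planned sign-flip test of the order of levels is not reported, because the same libraries set the order.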

Additional observations from a re-analysis of the deposited data

How the results depend on the processing

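ABCC2 was called higher in all 17 alternatives run, at a log2 fold change of 0.78 to 0.90, and no other transporter was called higher in any. These alternatives reuse the contrast that was known when the transporters were chosen. They describe how the call depends on the processing and do not test it. With the replicate block 1 transporter was called lower, ABCC3 at -0.45, against 0 without it. The block, which rests on the pairing seen in the data, changed the call of no other transporter. The log2 fold change of ABCC10 turned to -0.44 with the effective length offset, -0.51 on log2(TPM + 1) and -0.56 on log2(TPM + 0.1), and its effective lengths did not overlap between the groups. ABCC4 was at -0.020 with the offset. On the TPM scales ABCC4 was at -0.118 and -0.123 and ABCC1 at -0.063 and -0.064, where the median of all genes was -0.092 and -0.10, and neither gene lay far from it. Leaving out 1 library gave -0.0057 to 0.055 for ABCC1, -0.55 to 0.016 for ABCG2 and -0.53 to 0.21 for ABCC6. The offset took ABCC3 from -0.47 to -0.11.

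Genes called higher numbered 99 with the offset, 31 and 30 on the TPM scales, 294 at an adjusted p of 0.01 and 350 to 631 leaving out 1 library, against 814. Genes called lower numbered 105, 118, 102, 295 and 357 to 625, against 743. On the TPM + 1 scale 20.81% of the calls were higher, against 52.28%. List genes called higher were 1, 0, 0, 2 and 2 to 9, against 14, and those called lower 0, 3, 3, 4 and 4 to 8, against 9. Some settings raised the counts instead. The replicate block gave 1203 genes higher and 1056 lower, with 17 and 13 list genes. Without a count filter 1105 genes were higher and 874 lower, with 14 and 6 list genes. DESeq2 gave 910 and 679 genes, with 15 and 6 list genes. The cause was not tested. The neighbour pairs of transporters in 1 order in every library numbered 5 or 6 in all 10 alternatives run, the siMatrin3 libraries alone among them, a choice added after seeing the data. All alternatives but that choice reuse siCTRL libraries, which set the order. This count therefore describes the order and does not test it. ABCB1 and ABCG2, at 9 to 24 counts per library, are limited by depth.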
